A study of Bos taurus with 14 samples.

Results

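Immediate early genes are switched on within minutes of a growth factor, hormone or stress signal, without new protein synthesis, and their mRNAs are usually short-lived. Among the 8 genes described here, FOS and JUN encode partners of the transcription factor AP-1, MYC and KLF4 encode transcription factors of growth and differentiation, and DUSP1 and ZFP36 encode feedback inhibitors that act on MAP kinases and on inflammatory mRNAs. CCN1 and CCN2, formerly named CYR61 and CTGF, encode secreted matricellular proteins that bind integrins in the matrix and are targets of serum response factor and of YAP and TEAD. In mammary tissue such genes are known to respond to stretch, to growth factors and to the handling of tissue.

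These 8 genes, of 9155 with a probe set of 1 annotated symbol, are measured by 13 of the 24016 probe sets tested, all of which are described. CCN1, CCN2, DUSP1, ZFP36, KLF4 and MYC have 1 probe set each, FOS has 2 and JUN has 5. The genes were chosen by name after log2 differences and ranks of these same arrays were known. Their differences are therefore given as a description, and no count over them is read as support.

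Mammary biopsies came from dry Holstein cows, which had been dried off before a predicted calving date and assigned at random to 1 of 2 lighting schedules until calving. Long days (LD) gave 16 h of light and 8 h of dark, short days (SD) gave 8 h of light and 16 h of dark, and in both schedules the lights came on at the same hour. Biopsies were taken at day -24 and day -9 relative to calving, and each schedule has 3 arrays from the earlier day and 4 from the later. The hour of the biopsy and the ages of the cows are not stated. Nor is it stated whether the same cows gave both biopsies or whether arrays of a group are separate cows. Errors therefore measure the spread between arrays. The 4 groups share breed and tissue, and no group was untreated or sampled in milk.

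Values are log2 signals of robust multi-array average (RMA) summaries, so a difference of 1 is a doubling. Array medians lay between 6.43 and 6.61. Luminal, myoepithelial and stromal markers were bright in every array: the beta-casein gene CSN2 lay between 12.57 and 13.13, the smooth muscle actin gene ACTA2 between 11.03 and 12.16 and the collagen gene COL1A1 between 11.42 and 12.64. The adipocyte gene ADIPOQ was dim, between 2.98 and 4.03, below the lower quartile of each array, of which the lowest was 4.47. In a bulk biopsy, a change in the number of cells of a type and a change in RNA per cell cannot be told apart. LD day -9 replicate 4 and SD day -24 replicate 3 shared 280 probe sets in which both were at least 0.7 below the rest, and are called the arrays of low signal. MYC is the only member among them. In limma's array weights these arrays (0.416 and 0.434), LD day -24 replicate 1 (0.264) and the first replicate of SD at day -9 (0.498) were the 4 lowest, and the next was 0.776.

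CCN1 and DUSP1 were the members with the clearest separation between days. CCN1 was at 8.02, 7.87 and 8.39 in LD and at 8.06, 8.35 and 8.11 in SD at day -24 (replicates 1 to 3). Nearer calving it was at 9.32, 9.12, 8.88 and 8.98 in LD and at 9.21, 8.76, 8.71 and 8.81 in SD (replicates 1 to 4). All 8 arrays of day -9 lay above all 6 of day -24, and the arrays of LD and SD overlapped at both days. In rising order, the means ± standard deviations of CCN1 were 8.09 ± 0.27 (LD, n = 3) and 8.17 ± 0.15 (SD, n = 3) on the earlier day, then 8.87 ± 0.23 (SD, n = 4) and 9.07 ± 0.19 (LD, n = 4) on the later. Neighbours in this order that share a day overlapped in their arrays. The difference between days was 0.98 in LD (SE 0.16, 95% interval 0.63 to 1.34), a 1.97-fold difference. In SD it was 0.70 (SE 0.16, 0.34 to 1.06), which is 1.62-fold. Averaged over photoperiods it was 0.84 (0.59 to 1.09), or 1.79-fold, the smallest p of all 24016 probe sets, yet it did not pass the threshold (limma adjusted p = 0.157).

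DUSP1 encodes a nuclear phosphatase that switches off MAP kinases. It was at 8.68, 8.76 and 9.02 in LD and at 8.87, 9.11 and 8.86 in SD at day -24. On the later day it was at 9.94, 9.52, 9.32 and 9.51 in LD and at 9.81, 9.42, 9.19 and 9.47 in SD. Again each array of day -9 lay above each of day -24, here with a narrow gap, since the highest early array was at 9.11 and the lowest late array at 9.19. The means were 8.82 ± 0.18 (LD, n = 3) and 8.95 ± 0.14 (SD, n = 3) on the earlier day, and 9.47 ± 0.26 (SD, n = 4) and 9.57 ± 0.26 (LD, n = 4) on the later. The DUSP1 difference between days was 0.75 in LD (SE 0.17, 0.38 to 1.12) and 0.52 in SD (SE 0.17, 0.16 to 0.89). The average of 0.64 (0.38 to 0.90, 1.56-fold) ranked 4 by p among all probe sets (limma adjusted p = 0.636).

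**Figure D1:**
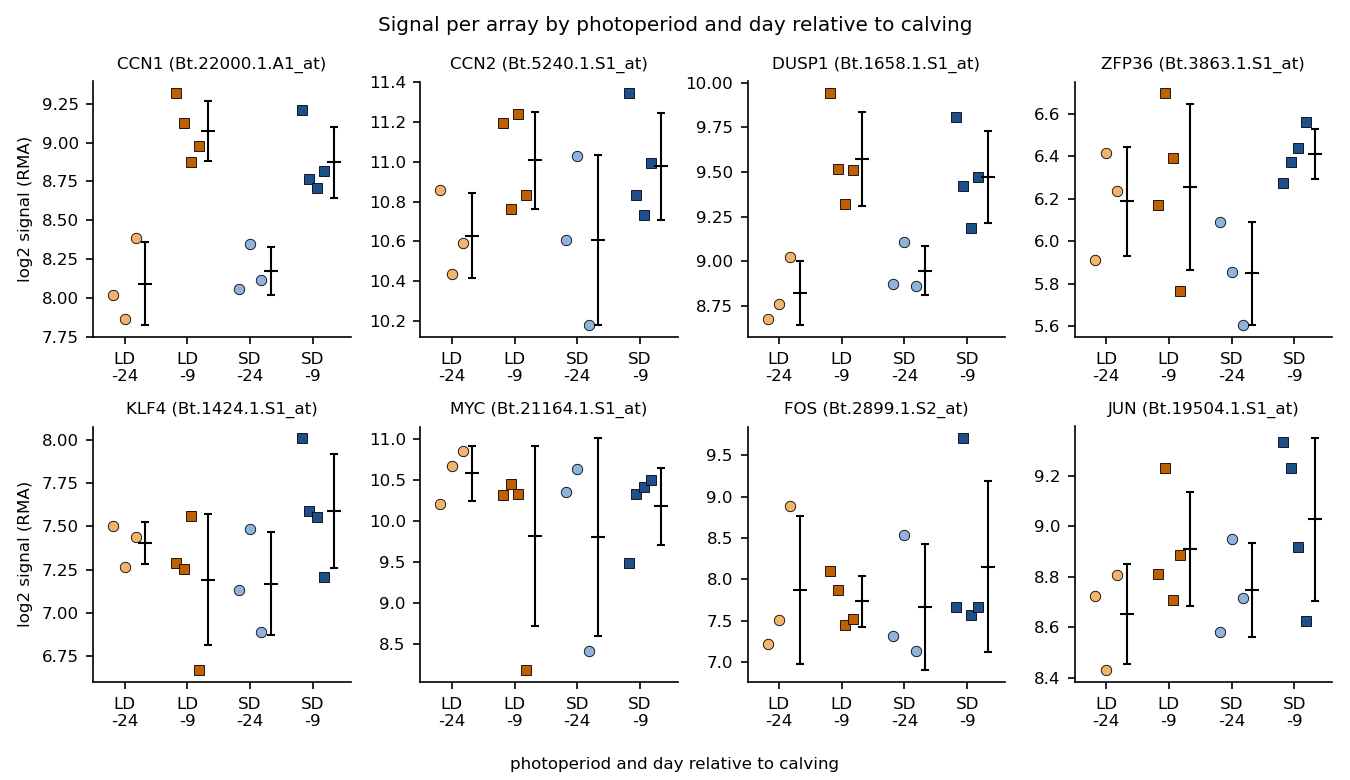
Log2 signal of the probe set of highest mean of each gene (y axis) in the 4 groups of photoperiod and day (x axis); each point is 1 array, ordered by replicate number, and the bar to the right is the mean ± standard deviation (n = 3 at day -24, n = 4 at day -9). In the CCN1 and DUSP1 panels all 8 arrays of day -9 lie above all 6 of day -24, whereas MYC and FOS hold single arrays far from the rest of their group.

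Of all probe sets, 14 (0.0583%) had all day -9 arrays above all day -24 arrays and 55 (0.229%) all below, and 2 of the 13 member probe sets were among the first, CCN1 and DUSP1. Separation within LD and within SD, which separation over both entails, was met by 29 (0.121%), and no further member was among them. Leaving out arrays cannot end a separation. The count over all probe sets was 91 (0.379%) without the arrays of low signal and 23 (0.0958%) without the first replicates of LD at day -24 and of SD at day -9, and no further member joined. Without those first replicates the average difference of CCN1 was 0.77 and that of DUSP1 0.55. Since the members were chosen in view of these arrays, nothing further is read from these counts. Between days no probe set had an adjusted p under 0.05 in limma (0 of 24016, 0%), in the average over photoperiods or within either. In the average, 12 of 13 member probe sets, from 7 of the 8 genes, were above 0, beside 50.2% of all. With an unadjusted p under 0.05 in the average, 873 were higher at day -9 (3.64%) and 980 lower (4.08%). Of the member probe sets, 5 of 13 were in the higher group (CCN1, CCN2, DUSP1, ZFP36 and 1 JUN probe set) and 0 in the lower. The median difference of the 13 was 0.27, beside 0.00 over all probe sets.

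CCN2, the second matricellular gene and a classical transcript of fibroblasts and contractile cells, was bright in every group and overlapped between days. At day -24 it was at 10.86, 10.44 and 10.59 in LD and at 10.61, 11.03 and 10.18 in SD. By day -9 it was at 11.20, 10.77, 11.24 and 10.83 in LD and at 11.35, 10.83, 10.73 and 11.00 in SD. The lowest array, SD day -24 replicate 3, is one of low signal, and the highest was the first replicate of SD at day -9. The difference between days was 0.38 in LD (-0.08 to 0.84) and 0.37 in SD (-0.08 to 0.83), and in SD it was 0.16 without the arrays of low signal. Between photoperiods CCN2 differed by -0.02 at day -24 (-0.51 to 0.46) and by -0.03 at day -9 (-0.45 to 0.39).

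Markers of cell types that can express CCN genes were measured beside them. Over all probe sets, 50.2% were higher at day -9 in the average over photoperiods. Counts over these short marker lists are given as description only. Of the myoepithelial markers, 7 of 9 were higher at day -9 in that average, with a median difference of 0.35. The mean level of that list lay between 8.87 and 9.41 in the day -24 arrays and between 9.24 and 10.12 in those of day -9. Adipocyte markers were higher in 7 of 8 (median 0.32), with mean levels of 6.16 to 6.66 at day -24 and 6.49 to 7.14 at day -9. Endothelial markers were higher in 8 of 8 (median 0.07), at 7.62 to 8.13 and 7.64 to 8.18, and fibroblast and matrix markers in 2 of 10 (median -0.01), at 11.14 to 11.60 and 10.94 to 11.69. By smallest p over the 7 comparisons, the myoepithelial genes were ACTA2, at 0.51 between days in LD, and CNN1, a calponin of contractile cells. CNN1 was at 0.70 between days in the average. The adipocyte genes were LPL, a lipase of fat uptake, at 0.73, and CFD, at 0.28, both between days in the average. Of the endothelial genes, EMCN was at 0.20 for SD minus LD averaged over days, and FLT1 at 0.26 between days in the average. The fibroblast genes were PDGFRA and DCN, at -0.46 and -0.42 for SD minus LD at day -9. No marker of these lists passed the threshold. Luminal markers were higher in 8 of 12 (median 0.02), with mean levels of 9.65 to 9.76 at day -24 and 9.68 to 10.12 at day -9. The luminal keratin gene KRT19 differed by 0.31 (SE 0.10) and the alpha-lactalbumin gene LALBA by 0.59 (SE 0.23). An unadjusted p under 0.05 in the upward direction, met by 3.64% of all probe sets, was met by 2 luminal, 2 myoepithelial and 1 adipocyte markers. In the downward direction, met by 4.08%, it was met by 1 fibroblast marker and by CATHL1, a neutrophil cathelicidin, at -1.90 (SE 0.79). Above 0 were 4 of 5 neutrophil markers (median 0.21), 5 of 7 of skeletal muscle (0.14), 3 of 7 of macrophages (-0.07), 2 of 5 of erythrocytes (0.00), 1 of 2 of skin (-0.08) and 1 of 9 of T and NK cells (-0.08). The macrophage genes of smallest p were GPNMB and CD68, at -1.51 (SE 0.34) and -1.11 (SE 0.26) for SD minus LD at day -9. Neither passed the threshold. The part of these cell types in the CCN1, CCN2 and DUSP1 values was not tested.

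**Figure D2:**
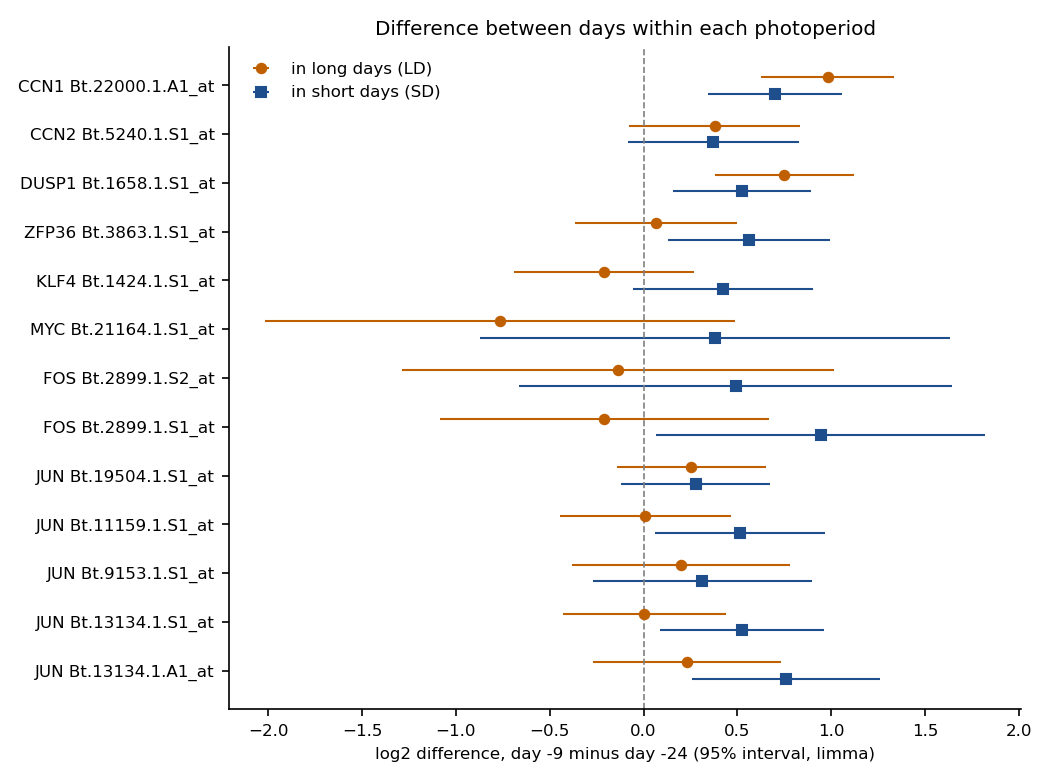
Log2 difference, day -9 minus day -24 (x axis, with the 95% interval of limma), for the 13 probe sets (y axis) in LD (circles) and SD (squares). The intervals of CCN1 and DUSP1 lie above 0 in both photoperiods, 0.63 to 1.34 and 0.38 to 1.12 in LD, whereas those of MYC and FOS are several times as wide.

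ZFP36 encodes tristetraprolin (TTP), which binds AU-rich elements and hastens the decay of cytokine mRNAs. It was at 5.91, 6.42 and 6.23 in LD and at 6.09, 5.85 and 5.60 in SD at day -24. At day -9 it was at 6.17, 6.70, 6.39 and 5.76 in LD and at 6.28, 6.37, 6.44 and 6.56 in SD. The arrays of both days did not overlap in SD, where 710 of all probe sets (2.96%) were separated in the same direction, but overlapped widely in LD. The difference between days was 0.56 in SD (SE 0.20, 0.13 to 0.99) and 0.07 in LD (SE 0.20, -0.36 to 0.50). The test of the difference between them, the photoperiod by day interaction, gave 0.49 (-0.12 to 1.11, limma adjusted p = 0.900), so ZFP36 is not shown to differ between photoperiods in its course. Without the arrays of low signal the difference between days was 0.44 in SD and 0.23 in LD and the interaction 0.21, and SD minus LD at day -9 was -0.01, where it was 0.16 with all arrays. The 3-prime to 5-prime signal difference, a sign of RNA quality, was averaged over 5 control transcripts, leaving out actin. This mean lay between 0.90 and 1.33 in the day -24 arrays and between 0.80 and 1.21 in those of day -9. The highest array at either day was one of low signal. Leaving out those arrays and adding this mean as a covariate are therefore not independent checks. The mean differed by -0.17 between days (two-sided exact permutation p = 0.0523, 0.334 adjusted over 14 such tests). Singly, the 5 transcripts differed by between -0.47 (EIF4E) and 0.02 (cyclophilin), and actin by -0.04. The smallest p was that of GAPDH, at -0.19 (exact permutation p = 0.0110, 0.154 adjusted). With the mean of 5 as a covariate, the ZFP36 difference was 0.14 in SD and 0.05 in the average over photoperiods, where it was 0.32 without it. The averages of CCN1 and DUSP1 were 0.91 and 0.69 with the covariate.

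KLF4, a zinc finger factor of epithelial differentiation and of growth arrest, overlapped between all groups. It was at 7.50, 7.27 and 7.44 in LD and at 7.13, 7.48 and 6.89 in SD at day -24. Nearer calving it was at 7.29, 7.25, 7.56 and 6.67 in LD and at 8.01, 7.59, 7.55 and 7.20 in SD. The lowest value was in LD day -9 replicate 4, an array of low signal, and the highest in SD day -9 replicate 1. Between days KLF4 differed by -0.21 in LD (-0.69 to 0.27) and by 0.42 in SD (-0.06 to 0.90), and by 0.11 in the average. SD minus LD was -0.23 at day -24 (-0.75 to 0.28) and 0.40 at day -9 (-0.05 to 0.84), and the interaction was 0.63 (-0.05 to 1.31, limma adjusted p = 0.900). Without the arrays of low signal the photoperiod differences were -0.09 and 0.22 and the day differences -0.03 and 0.28, and with the RNA quality covariate the average over photoperiods was -0.01.

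MYC drives ribosome production and cell growth. Its probe set was at 10.21, 10.67 and 10.86 in LD and at 10.35, 10.64 and 8.41 in SD at day -24. On the later day it was at 10.31, 10.45, 10.33 and 8.18 in LD and at 9.48, 10.33, 10.42 and 10.50 in SD. Of the 14 arrays, 11 lay between 10.21 and 10.86, and the other 3 were both arrays of low signal and SD day -9 replicate 1. The residual standard deviation of 0.86 was at percentile 98.5 of all probe sets. SD minus LD was -0.78 at day -24 (-2.12 to 0.56) and 0.36 at day -9 (-0.80 to 1.52), and without the arrays of low signal it was -0.09 and -0.18. Between days the MYC difference was -0.76 in LD and 0.38 in SD, and -0.22 and -0.31 without those arrays. The direction of the MYC difference between days in SD, and of that between photoperiods at day -9, thus turned with these arrays. With the RNA quality covariate the MYC difference between days was -1.04 in LD, -0.69 in SD and -0.86 in the average, where it was -0.19 without it, and SD minus LD at day -24 was -0.17.

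FOS, whose protein forms AP-1 with JUN, was high in single arrays of several groups. Its brighter probe set was at 7.22, 7.51 and 8.89 in LD and at 7.31, 8.53 and 7.14 in SD at day -24. By day -9 it was at 8.10, 7.87, 7.45 and 7.52 in LD and at 7.67, 9.71, 7.57 and 7.67 in SD. The 3 highest arrays were replicate 2 of SD at day -9, replicate 3 of LD at day -24 and replicate 2 of SD at day -24, from 3 of the 4 groups, and the other 11 lay between 7.14 and 8.10. The dimmer probe set was at 7.14 and 6.06 in the first 2 of these arrays and between 4.35 and 5.55 in all others. In the third, SD day -24 replicate 2, it was at 5.40. Over the 14 arrays both probe sets had a Pearson r of 0.91 (Spearman rho 0.87), and 0.64 without the first 2 of these arrays.

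The FOS comparisons moved with these arrays. SD minus LD at day -9 was 0.42 for the brighter probe set (-0.65 to 1.48) and 0.63 for the dimmer (-0.18 to 1.44), and -0.10 and 0.19 without SD day -9 replicate 2. Between days in SD they differed by 0.49 and 0.94, and by -0.03 and 0.51 without that array. At day -24 the photoperiod difference of the brighter probe set was -0.21, and it was 0.30 when replicate 3 of LD was left out and -0.65 when replicate 2 of SD was. In LD the differences between days were -0.14 and -0.21, and 0.37 and 0.11 without LD day -24 replicate 3. The residual standard deviations of 0.79 and 0.60 stood at percentiles 97.9 and 94.3 of all probe sets, whereas those of CCN1 and DUSP1, 0.21 and 0.22, stood at 39.5 and 43.3.

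JUN, the AP-1 partner of FOS, was measured by 5 probe sets, which are readings of 1 gene and not replicates. The brightest was at 8.72, 8.43 and 8.81 in LD and at 8.58, 8.95 and 8.72 in SD at day -24. At day -9 it was at 8.81, 9.23, 8.71 and 8.89 in LD and at 9.33, 9.23, 8.92 and 8.62 in SD. The groups overlapped, with the highest values in the first pair of SD replicates and in LD replicate 2, all at day -9. All 5 probe sets were higher at day -9 than at day -24 in each photoperiod, by 0.28 to 0.76 in SD and by 0.00 to 0.26 in LD. Without LD day -24 replicate 1 and the first SD replicate of day -9, the LD values of 2 of them were -0.02 and -0.11. In SD the 95% interval lay above 0 for 3 of them: the dimmest (0.76, 0.26 to 1.26), the second dimmest (0.53, 0.09 to 0.96) and the second brightest (0.52, 0.06 to 0.97). The arrays of the second dimmest did not overlap between days in SD. The second dimmest had a mean of 5.07 and the dimmest one of 4.66, near the lower quartiles of the arrays (4.47 to 4.73). Their average differences over photoperiods were 0.27 and 0.50, and 0.09 and 0.35 with the RNA quality covariate. With that covariate the 3 brighter probe sets, at 0.27, 0.26 and 0.26 in order of mean, were at 0.38, 0.29 and 0.43. Across pairs of JUN probe sets, Pearson r over the 14 arrays lay between 0.49 (Spearman rho 0.42) and 0.91 (rho 0.90).

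Between days in SD with all arrays, all 13 member probe sets had a difference above 0, as had 46.7% of all probe sets, with a median of 0.52. An unadjusted p under 0.05 in the upward direction was met by 7 of 13 (CCN1, DUSP1, ZFP36, 1 FOS and 3 JUN probe sets) and by 632 of all (2.63%, with 1.93% lower). In LD, 9 of 13 were above 0, beside 50.5% of all probe sets, and the median was 0.07. There 2 of 13 had an unadjusted p under 0.05 in that direction, CCN1 and DUSP1, beside 3.61% of all (3.86% lower). Arrays did not overlap between days, with day -9 higher, for these 2 members in LD (4.32% of all, 4.66% in the other direction) and for 4 in SD (2.96% and 2.94%), CCN1, DUSP1, ZFP36 and the JUN probe set named above. Without the arrays of low signal, MYC was at -0.31 between days in SD, and the other members stayed above 0 there. Each SD difference was then lower, and each LD difference higher except that of the middle JUN probe set. No sign turned in LD. The comparisons of days in LD and in SD share no array. Their difference, the interaction, was called for 0 of 24016 probe sets by limma (0%). The unadjusted p was under 0.05 for 0 of 13 member probe sets, beside 2.49% of all probe sets higher and 1.66% lower. The interaction of CCN1 was -0.28 (-0.78 to 0.22), that of CCN2 -0.01 (-0.65 to 0.64) and that of DUSP1 -0.23 (-0.75 to 0.29). Those of KLF4, ZFP36, MYC and all FOS and JUN probe sets were above 0. This makes 10 of 13 probe sets but 5 of the 8 genes, beside 47.9% of all probe sets. Without the arrays of low signal the interaction was -0.10 for MYC and -0.01 for the middle JUN probe set.

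The comparison of SD with LD asks what the lighting schedule changed in the gland at a given day. No photoperiod difference was shown for a member. In limma 0 of 24016 probe sets (0%) passed at day -24, at day -9 or in their average, and 0 of 13 member probe sets had an unadjusted p under 0.05. Over all probe sets that share was 1.18% higher and 1.23% lower at day -24, and 1.44% higher and 1.33% lower at day -9. At day -24, 3 of 13 member probe sets were above 0 (CCN1, DUSP1 and 1 JUN probe set), beside 52.7% of all, with a median of -0.21. Without the arrays of low signal, CCN2 (0.19) and the brighter FOS probe set (0.05) were above 0 too. So were the middle and the second dimmest JUN probe sets (0.10 and 0.02). Still below 0 were ZFP36 (-0.22), KLF4 (-0.09), MYC (-0.09) and the dimmer FOS probe set (-0.26). The second brightest and the dimmest JUN probe sets were also below (-0.18 and -0.10). At day -9, 10 of 13, from 5 of the 8 genes, were above 0, beside 50.2% of all, with a median of 0.20. CCN1, CCN2 and DUSP1 were below, and without the arrays of low signal ZFP36 (-0.01) and MYC (-0.18) were below too. In the average over days 8 of 13 were above 0 (52.2% of all), and 0 had an unadjusted p under 0.05 (1.03% higher and 0.912% lower over all). Arrays of LD and SD overlapped for each of the 13 at day -24 (2.64% of all were separated with SD higher, 3.02% with SD lower), at day -9 (1.34% and 1.12%) and over both days (0.0291% and 0.0208%). The CCN1 difference was 0.08 at day -24 (-0.30 to 0.46) and -0.20 at day -9 (-0.53 to 0.13). That of DUSP1 was 0.13 (-0.27 to 0.52) and -0.10 (-0.44 to 0.24). The widest of the 13 intervals, that of MYC at day -24, reached from -2.12 to 0.56.

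**Figure D3:**
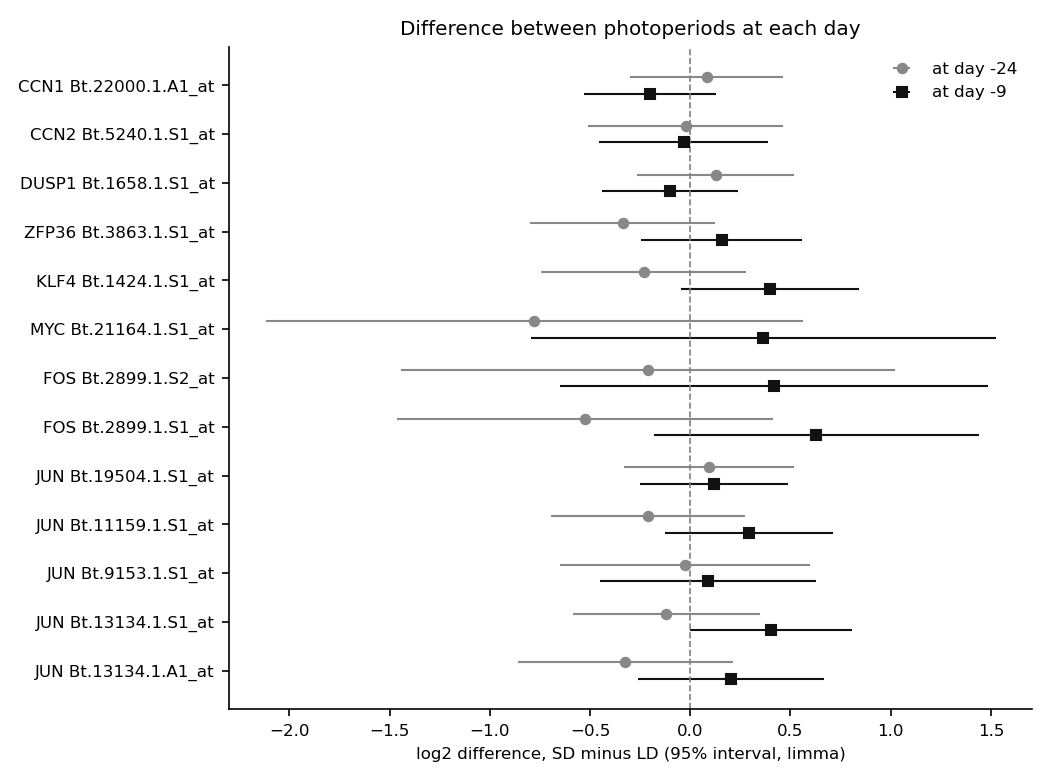
Log2 difference, SD minus LD (x axis, with the 95% interval of limma), for the 13 probe sets (y axis) at day -24 (grey circles) and day -9 (black squares). Each interval includes 0. With all arrays, 3 of 13 points are above 0 at day -24 and 10 of 13 at day -9. Several of these signs turned without the arrays of low signal.

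CCN1 and DUSP1 also moved together from array to array. Over the 14 arrays their log2 signals had a Pearson r of 0.97 and a Spearman rho of 0.97, and r was 0.96 without the 2 arrays farthest from the CCN1 median. For the deviations from group means, which leave out the differences between groups, r was 0.90. In both genes LD day -9 replicate 1 was the highest array and SD day -9 replicate 1 the second. CCN1 and CCN2 had r = 0.70 (rho 0.63), and 0.48 for the deviations. Over the 28 pairs of members, r had a median of 0.35 and was above 0 in 25, with a lowest value of -0.13 for CCN1 and MYC. FOS and JUN had r = 0.48 (rho 0.63).

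ZFP36 and MYC had r = 0.64 (rho 0.52) and 0.05 without the arrays of low signal, so that relation rests on those 2 arrays. The r of 0.55 (rho 0.49) between CCN2 and KLF4 was 0.17 without SD day -24 replicate 3 and SD day -9 replicate 1. These values are descriptions over arrays that share their groups and their normalization. No p is attached to them, because the pairs were chosen with the arrays in view.

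**Figure D4:**
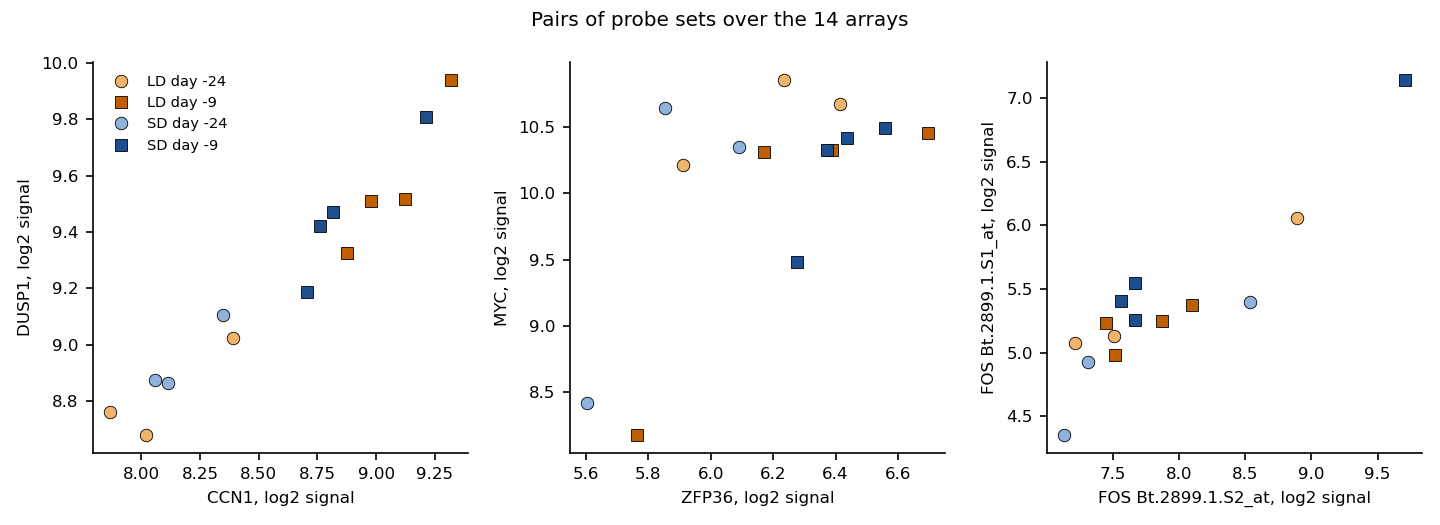
Log2 signals of CCN1 and DUSP1 (left), ZFP36 and MYC (middle) and of both FOS probe sets (right) in the 14 arrays, 1 point per array, coloured by group. CCN1 and DUSP1 lie along 1 line within and between days (r = 0.97), 2 arrays set the slope for ZFP36 and MYC, and SD day -9 replicate 2 is the highest FOS array on both axes.

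**Figure D5:**
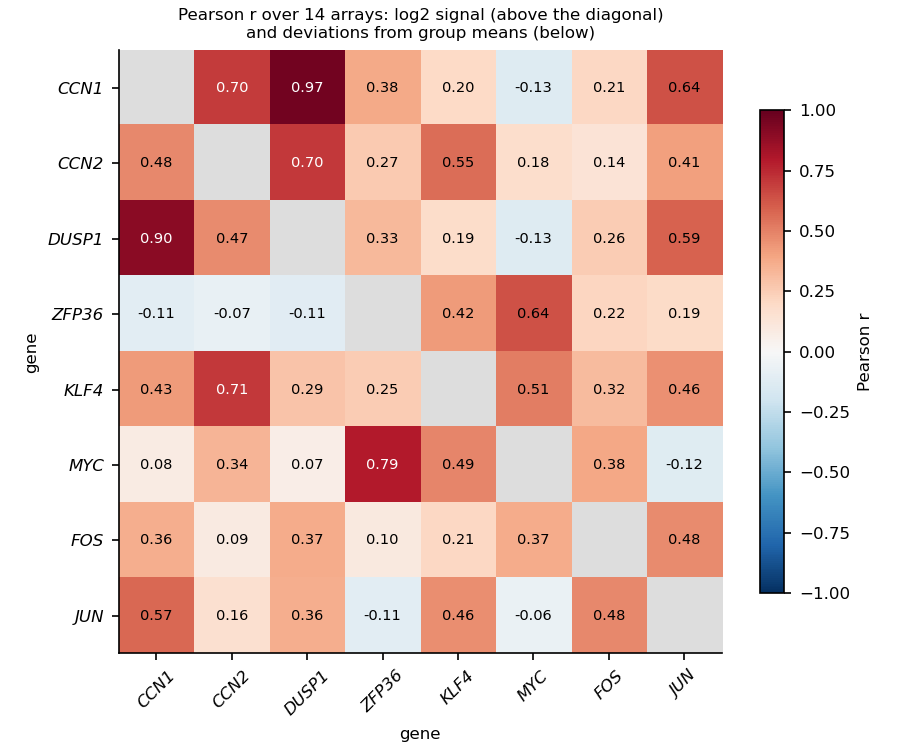
Pearson r over the 14 arrays for each pair of the 8 genes (axes: genes; colour: r), each by its probe set of highest mean, from log2 signals above the diagonal and from deviations from group means below it. CCN1 and DUSP1 have the highest value on either side, 0.97 and 0.90.

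The genes whose signal was most like that of CCN1 over the 14 arrays, among genes with 1 symbol, were OXNAD1 (r = 0.85, rho 0.86), POLR3C (r = 0.83, rho 0.85), the pseudokinase gene TRIB1 (r = 0.83, rho 0.81), the phosphodiesterase gene PDE7B (r = 0.83, rho 0.82) and LOC100847724 (r = 0.82, rho 0.84). DUSP1, a member, stood above all of these. TRIB1 is itself an early response gene, and the probe set concerned ranged from 6.54 to 7.85. Its deviations from group means had an r of 0.63 with those of CCN1, beside 0.60 for LOC100847724, 0.57 for OXNAD1, 0.41 for PDE7B and 0.12 for POLR3C. For FOS the most similar were SUPT20H (r = 0.82, rho 0.78), GPATCH1 (r = 0.81, rho 0.85), NAF1 (r = 0.81, rho 0.80), ZC3H13 (r = 0.79, rho 0.55) and the cytokine gene IL7 (r = 0.78, rho 0.67). Without the pair of arrays highest in FOS these were 0.58, 0.77, 0.76, 0.49 and 0.61.

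Other genes of the pathways were taken from lists chosen with earlier results of these data known, by the probe set of highest mean. None of them passed the threshold in any of the 7 comparisons in limma. Over all probe sets, 50.2% were above 0 between days in the average, and counts over these short lists are description only. Of 14 measured immediate early transcription factors other than the members, which include EGR1, FOSB, FOSL2, JUNB, ATF3 and NR4A1, 7 were higher and 7 lower at day -9 in the average, with a median of 0.02. The 2 of smallest p were CEBPD, an acute phase regulator, at 0.56 (SE 0.27), and KLF10, a factor induced by TGF-beta, at -0.43 in LD (SE 0.21). Of 17 other early regulators, such as IER2, IER3, GADD45B and SGK1, 12 were above 0, with a median of 0.02. The circadian repressor BHLHE40 had an interaction of 1.20 (SE 0.51) and ID2, an inhibitor of basic helix-loop-helix factors, a difference of -0.61 between days in LD (SE 0.30).

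Among inhibitors of MAP kinase signalling related to DUSP1, DUSP10, SPRY1, SPRY2 and SPRED1 were measured. In the average over photoperiods 2 of the 4 were higher at day -9 and 2 lower, between -0.16 (SPRED1) and 0.26 (DUSP10). DUSP10 differed by 0.66 between days in SD (SE 0.32) and SPRY2 by -0.48 between SD and LD at day -24 (SE 0.26). Of 10 kinases, receptors and factors upstream of the early genes, 8 were above 0 between days, with a median of 0.14. The kinase genes BRAF (0.48, SD minus LD at day -9, SE 0.19) and MAPK8 (0.31 between days in LD, SE 0.13) had the smallest p.

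In the list of CCN, YAP and TEAD genes, 9 of 20 were measured, and 7 of them were higher at day -9 in the average (median 0.13). They reached from -0.14 for the tissue factor gene F3 to 0.37 for ANKRD1, a target of YAP. The kinase gene LATS1, an inhibitor of YAP, had an interaction of 0.99 (SE 0.34), and CCN5, a family member that lacks the C-terminal domain of CCN1 and CCN2, one of -1.17 (SE 0.45). Between days CCN5 differed by 0.74 in LD and by -0.43 in SD.

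Around ZFP36, 7 genes of the TTP family and of AU-rich mRNA decay were measured, 2 higher and 5 lower at day -9 (median -0.04). ZFP36L1, a paralogue of ZFP36, differed by -0.34 between days in LD (SE 0.12), and the deadenylase gene CNOT7 by -0.17 in the average (SE 0.07). Of 10 mRNAs known as TTP targets, 7 were higher and 3 lower (median 0.06). The interleukin gene IL6 differed by 0.96 between days in LD (SE 0.29) and the neutrophil attractant CXCL8 by -0.92 between SD and LD at day -9 (SE 0.33). Both were dim. The LD means of IL6 were 3.10 at day -24 and 4.06 at day -9, below the lowest lower quartile of the arrays (4.47). At day -9 CXCL8 had means of 4.72 in LD and 3.79 in SD, near or below it.

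Of the MYC partners MAX, MXD3, MXI1 and MLX, 3 of 4 were higher at day -9 (median 0.05), and MXD3, an antagonist of MYC, differed by -0.33 between days in SD (SE 0.14). MAX, the obligate partner of MYC, differed by 0.29 in the average (SE 0.18). Of 7 measured MYC target genes, 5 were lower and 2 higher (median -0.17), with ODC1, the first enzyme of polyamine synthesis, at -0.37 (SE 0.13) and the nucleolin gene NCL at -0.33 in LD (SE 0.16). Cytosolic heat shock genes were lower at day -9 in 7 of 9 (median -0.09). Their mean level lay between 10.66 and 11.06 at day -24 and between 10.71 and 10.99 at day -9, so the days overlapped.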

How the data were processed

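Expression was measured on 14 Affymetrix bovine arrays. Per the submitters' processing notes, the authors summarised the arrays by RMA, and the deposited values are log2 signals, 1 per probe set and array. The software version is not given in the sources used here. Tests used no control probe sets (112 on the array). Of the 24016 others, 13292 carry 1 gene symbol, 86 several and 10638 none. All 8 members matched RefSeq gene IDs. No sequence table or genome build was used, so no sequences or positions are given.

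In R 4.3.3, limma 3.58.1 was run once on the 14 arrays with a mean for each group, and its two-sided moderated tests took the Benjamini-Hochberg adjustment across the 24016 probe sets (threshold 0.05). Intervals are 95%, and arrays, not depth, limit the precision. The procedure was also run on simulated data, but the outcome is not given here and no result rests on it. RNA quality was compared by exact permutation. No explanation was tested.

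The members, gene lists and the 2 arrays of low signal were chosen with earlier results of these data known. All member probe sets are reported. From each pathway list the 2 genes of smallest p over the 7 comparisons are named, as none passed. Named too are the 5 genes of highest Pearson r with FOS and with CCN1. Of the cell type and heat shock lists, the genes of smallest p are named only in part. CSN2, KRT18, LALBA, ADIPOQ, ACTA2 and COL1A1 served as tissue checks: KRT18 lay between 7.52 and 9.31 and LALBA between 11.71 and 13.38.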

Additional observations from a re-analysis of the deposited data

Results flagged for a closer look

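In groups of 4 arrays, 26 sets of member values were examined for a value whose gap to its neighbour was too large for its range by Dixon's 95% limit, and 5 had one. Chance gives about 1 in 20 for independent sets, but these sets share arrays and hold 2 FOS and 5 JUN probe sets. The share over all probe sets is not given here, so the count is not read as a result about the members. MYC in LD day -9 replicate 4 was at 8.18, with the other 3 arrays between 10.31 and 10.45, and in SD day -9 replicate 1 at 9.48, with the others between 10.33 and 10.50. FOS in SD day -9 replicate 2 was at 9.71 in the brighter probe set and 7.14 in the dimmer, with the others between 7.57 and 7.67 and between 5.26 and 5.55. The second brightest JUN probe set in SD day -9 replicate 4 was at 7.70, with the others between 8.38 and 8.41. Both FOS probe sets thus had the same array apart, while the other 4 JUN probe sets had none.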

How the results depend on the processing

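Alternatives were a filter on the lower 25% of probe sets by mean, an intensity trend or a robust prior, array weights, median centring or quantile normalization, only the groups compared, arrays left out, RNA quality as a covariate and replicate blocks. No member passed the threshold in any of them. Of 2288 member values, 2279 stayed within 1 residual standard deviation of the reported value. A small difference can turn its sign within that range. SD minus LD of DUSP1 averaged over days (0.01) kept its sign in 15 of 24 fits, and the CCN2 interaction (-0.01) in 17 of 25. CCN1 between days kept its sign in all 25 fits of the average, from 0.77 to 0.91, with a lowest adjusted p of 0.0902, and DUSP1 from 0.55 to 0.69. Leaving out single arrays gave between 0 and 1 probe sets called between days in SD and between SD and LD in the average, and 0 elsewhere. Without SD day -24 replicate 3 it was a probe set with no symbol (-2.29), and without SD day -9 replicate 3 it was AGA (0.92). Without both arrays of low signal, 1 probe set was called between days in SD, the same one. With the replicate number as a block, 0 probe sets were called, and CCN1 and DUSP1 differed by 0.87 and 0.65 in the average; the block within photoperiod gave the same 2 values. The labels do not say whether a replicate number marks a cow. Within a photoperiod, deviations of same-numbered arrays from the 2 days had a median correlation of 0.20 (4 of 6 pairs above 0.1, lowest -0.31), beside -0.12 for different numbers (4 of 18 above 0.1). So few pairs, with deviations that sum to 0 within each group, cannot decide whether the numbers mark cows. The main fit assumed no pairing. Averaging the 2 FOS or 5 JUN probe sets was run too. Leaving out both LD day -24 replicate 1 and SD day -9 replicate 1 was chosen after seeing the data, as were the counts of separated probe sets without arrays and within both photoperiods.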
